A study of Homo sapiens with 6 samples.

Results

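H9 is an established human T lymphoma line, yet its RNA held transcripts that are better known from other lineages. Described here are 10 such genes. EPCAM, CDH1, KRT7 and KRT86 are known from epithelia, LIN28B and DNMT3B from stem cells, BLK and CD79A from B cells, and NCR3 and NKG7 from natural killer cells. They were chosen by name from the 26485 genes of the table, with their levels in these libraries already known, so their levels are given as a description without a test. RNA was sequenced from 3 control libraries and 3 libraries of cells exposed to 1 µM PA4, a compound named by its code. The labels describe both groups as H9 cells of cutaneous T lymphocyte type, grown in RPMI medium with serum and antibiotics, and give 24 h with DMSO (control) or with PA4. The series title calls PA4 a berbamine derivative. Whether replicates came from separate cultures is not stated in the labels, and the p-values cover only library-to-library spread, which may be technical.

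The lineages are marked by different machinery. EPCAM and E-cadherin (CDH1) hold epithelial cells to one another, and keratins such as KRT7 and KRT86 form their intermediate filaments. LIN28B blocks the maturation of the let-7 microRNAs in embryonic and germ cells, and DNMT3B places new DNA methylation. CD79A is a signalling chain of the B cell receptor, BLK a kinase of the SRC family that works beside it, NCR3 (NKp30) an activating receptor of natural killer cells, and NKG7 a membrane protein of cytotoxic granules that is also found in cytotoxic T cells.

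Library totals ranged from 18282212 to 22875191 counts. T cell markers were present in part: 21 of 25 T cell markers passed the filter on low counts and their summed level was 2671 to 2851 CPM (counts scaled to a common library size) in control, with 115 ± 2.08 CPM (SD, n = 3) of CD3E, whereas CD4 had 6 to 12 counts per library and CD2 at most 1. The name H9 is also used for a line of embryonic stem cells, and the pluripotency factors SOX2 and NANOG had 0 counts in every library, which allows up to 3 counts, or 0.132 to 0.164 CPM per library, counting error only. POU5F1 had 0 to 2 counts. The 9 myeloid markers summed to 22 to 34 counts in control libraries and 15 to 36 with PA4. In bulk RNA, a gene present in few cells and a gene low in every cell cannot be told apart.

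**Figure D1:**
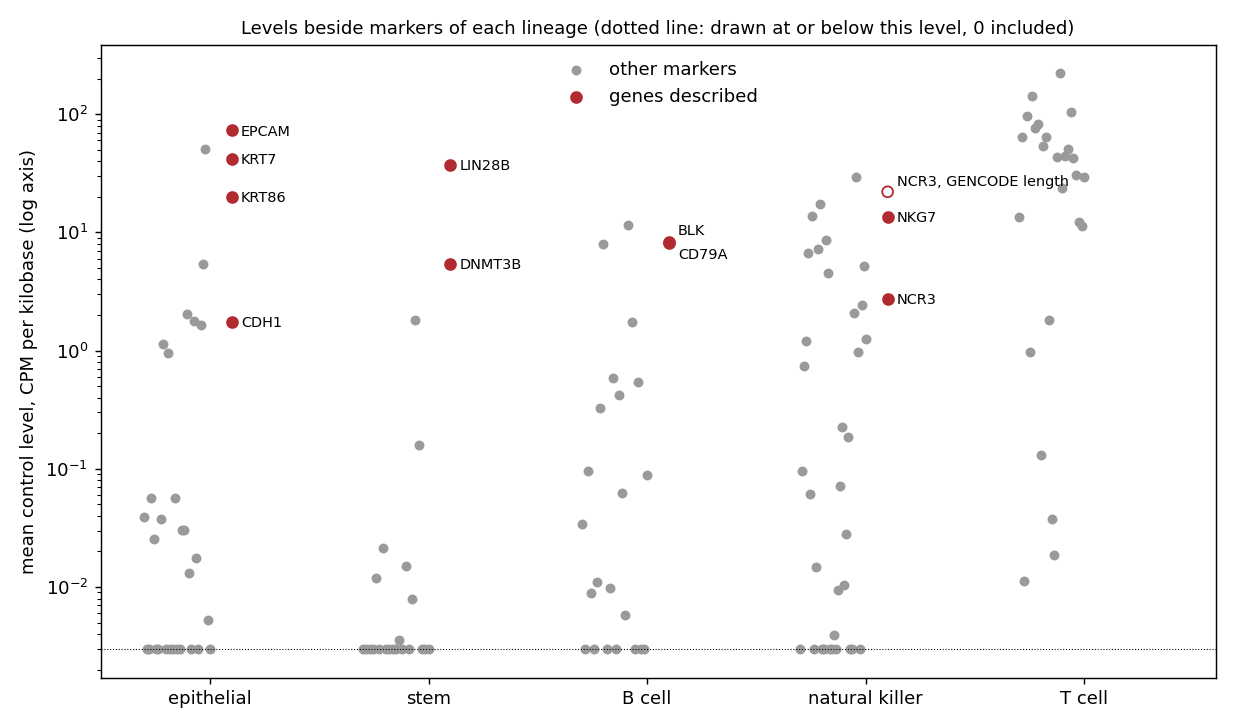
Mean control level in CPM per kilobase of gene length (log axis) of the 10 genes (red, labelled) beside other markers of the same lineage and of T cells (grey, 1 point per gene). The open circle is NCR3 with its GENCODE length, and points at or below 0.003, those at 0 included, lie on the dotted line. EPCAM, at 73.3, stood among the T cell markers. Most other epithelial, stem and B cell markers lay far below the labelled genes, which were chosen with their levels known. CDH1, at 1.75, lay below SPINT2 at 50.6, SPINT1 at 5.41 and MUC1 at 2.04.

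Levels of different genes were compared as CPM per kilobase of the length deposited with the counts. In control the order was EPCAM at 73.3 ± 1.52, KRT7 at 41.9 ± 7.44, LIN28B at 37.4 ± 2.43, KRT86 at 19.97 ± 2.50, NKG7 at 13.6 ± 1.21, BLK at 8.30 ± 0.500, CD79A at 8.18 ± 0.793, DNMT3B at 5.43 ± 0.146, NCR3 at 2.73 ± 0.240 and CDH1 at 1.75 ± 0.149 CPM per kilobase (SD, n = 3 each). KRT7 and LIN28B had overlapping ranges over the 3 control libraries, as did BLK and CD79A, and the other neighbours did not overlap. EPCAM stood above 92.3% of the tested genes on this scale and CDH1 above 20.2%.

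The places of NCR3, BLK and KRT7 in that order depended on the length used. For NCR3 the deposited length was 9792 bases, 8.08 times the 1212 bases that its exons cover in GENCODE release 29. Of 23900 symbols matched to GENCODE, 510 had a deposited length more than 3 times their exon length, and 190 of those lie on chromosome 6, where NCR3 is. With the GENCODE length NCR3 was at 22.1 ± 1.94 CPM per kilobase (SD, n = 3), which placed it below LIN28B at 34.3 and above KRT86 at 17.44. BLK, with 5077 annotated bases against 2590 deposited, was at 4.24 ± 0.255 on the GENCODE scale, below DNMT3B at 5.43 ± 0.146 and CD79A at 6.85 ± 0.664 CPM per kilobase (SD, n = 3 each). On that scale KRT7, whose annotated exons are 4093 bases against a deposited 1702, was at 17.41 CPM per kilobase.

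EPCAM encodes a cell adhesion protein of epithelia that proteases can cleave to release an intracellular signalling fragment. It lies on chromosome 2 of GRCh38 at 47369311 to 47387020. It had 123.6, 125.7 and 128.8 CPM in control replicates 1 to 3 and 133.98, 132.6 and 134.9 CPM in PA4 replicates 1 to 3. All PA4 libraries were above all control libraries, by a small margin, as they were in 5.91% of all tested genes. The fold change was 1.062, or 0.086 ± 0.038 log2 (SE), with an unadjusted p of 0.0382 and an adjusted p of 0.933 in edgeR's quasi-likelihood test, so EPCAM was not called. Of the 25 T cell markers, the 1 nearest to EPCAM over the 6 libraries was CD3E, at 76.1 CPM per kilobase in control, and the next was CD3G, at 83.0 (Euclidean distances in log2 CPM per kilobase of 0.148 and 0.330). With GENCODE lengths, introduced above for NCR3, the nearest was CD5, at 52.6 CPM per kilobase.

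Genes that act on EPCAM were present, whereas a claudin that binds it was barely counted. The proteases ADAM10 and ADAM17 were at 135 ± 4.20 and 50.5 ± 3.12 CPM, and APH1A and NCSTN, parts of gamma-secretase, at 124 ± 8.12 and 47.9 ± 0.398 CPM in control (SD, n = 3 each). CLDN7, a claudin that binds EPCAM, had 0 to 2 counts per library. Of 11 genes of EPCAM cleavage and partnership 9 were tested, 0 were called by edgeR in either direction and 0 had an unadjusted p under 0.05. Of these 11, 8 had a mean of 100 counts or more and 2 had at most 10 counts in every library.

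CDH1, the gene of E-cadherin, lies on chromosome 16 at 68737292 to 68835537. It had 178, 158 and 149 counts in control replicates 1 to 3 and 164, 169 and 127 in PA4 replicates 1 to 3, or 9.22, 8.21 and 7.82 CPM and 8.12, 7.41 and 6.96 CPM. The groups overlapped by 1 PA4 library. The fold change was 0.892 with a 95% interval of 0.762 to 1.04 and an adjusted p of 0.988 by edgeR. The T cell marker nearest to CDH1 was CD7, at 1.81 CPM per kilobase in control, a gene often low in T lymphoma, and with GENCODE lengths it was CD28.

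E-cadherin works through catenins. CTNNB1 (beta-catenin) was at 149.5 ± 4.20 CPM, JUP (plakoglobin) at 87.2 ± 11.3 CPM and CTNNA1 (alpha-catenin) at 8.56 ± 0.307 CPM in control (SD, n = 3 each), whereas CTNND1 (p120-catenin), which holds E-cadherin at the membrane, had 0 to 3 counts per library. Of 9 matched genes of this complex 6 were tested and 0 called. VCL (vinculin) alone had an unadjusted p under 0.05, beside 5.29% of all tested genes, with a log2 fold change of 0.12 ± 0.037 (SE). Its edgeR adjusted p was 0.539, and it was higher in 3 of 3 PA4 libraries, as were 5.91% of all tested genes.

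Repressors of CDH1 were counted beside it. ZEB1, which represses CDH1 in mesenchymal cells, was at 41.7 ± 1.44 CPM in control, VIM (vimentin) at 779 ± 10.5 CPM (SD, n = 3 each), and SNAI2 had 0 counts. Of 11 genes on the list of repressors and mesenchymal markers 6 were tested and 0 called, and 3 had an unadjusted p under 0.05 (VIM higher, ZEB2 and TWIST1 lower), beside 5.29% of all tested genes. ZEB2, a close relative of ZEB1, went from 3.80 ± 0.442 CPM in control to 2.46 ± 0.236 CPM with PA4 (SD, n = 3 each), lower in 3 of 3 libraries as were 5.31% of all tested genes, and its edgeR adjusted p was 0.247.

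KRT7, a type II keratin of simple and glandular epithelia, lies on chromosome 12 at 52233243 to 52255853. It had 84.7, 69.6 and 59.5 CPM in control replicates 1 to 3 and 70.2, 73.6 and 66.1 CPM in PA4 replicates 1 to 3. The 3 PA4 libraries lay inside the range of the control libraries, of which replicate 1 was the highest of all 6. With PA4 its level was 0.983 times that of control (95% interval 0.864 to 1.12), and the edgeR adjusted p was 0.997. The log2 fold change was -0.025, and it was 0.12 without control replicate 1 and 0.015 without PA4 replicate 3. Its nearest T cell marker was RUNX3, at 42.7 CPM per kilobase in control, or LAT with GENCODE lengths.

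KRT86, a type II keratin of hair, lies close to KRT7, at 52274645 to 52309163. It had 47.3, 40.97 and 36.96 CPM in control and 39.0, 42.5 and 36.8 CPM with PA4 in replicates 1 to 3. Again control replicate 1 was the highest of the 6 and the groups overlapped. PA4 over control gave 0.946 with a 95% interval of 0.842 to 1.063 and an edgeR adjusted p of 0.993. The direction turned without control replicate 1, to 0.021 log2.

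KRT86 has near copies in its keratin cluster, which limits what its count means. Its coding sequence was 94.2% identical to that of KRT81 and 91.5% to that of KRT83 in GENCODE transcripts, and the longest run identical to KRT81 was 605 bases. Of its 50-base windows 37.5% also occur in transcripts of other genes, 30.8% in KRT81, against at most 5.70% for the other 9 genes. That search used GENCODE transcripts, not the annotation behind the counts, where NCR3 has 8.08 times its GENCODE exon length. Sharing in that annotation was not tested. The stretches below show why some reads can be assigned and others cannot. The first 60 bases, at coding positions 574 to 633 of KRT86, are the same in KRT81, and capitals mark where KRT83 differs (in KRT86, the base that KRT83 lacks).
KRT86: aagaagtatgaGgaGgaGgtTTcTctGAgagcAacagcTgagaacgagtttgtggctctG
KRT81: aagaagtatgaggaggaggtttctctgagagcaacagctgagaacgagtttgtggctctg
KRT83: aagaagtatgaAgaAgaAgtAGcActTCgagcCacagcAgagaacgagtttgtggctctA
The next 60 bases, at coding positions 1252 to 1311 of KRT86, differ from KRT81 at 14 positions and from KRT83 at 13, in capitals.
KRT86: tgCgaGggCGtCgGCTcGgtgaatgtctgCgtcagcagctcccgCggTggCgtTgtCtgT
KRT81: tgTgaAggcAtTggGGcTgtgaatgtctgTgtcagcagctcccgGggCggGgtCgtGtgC
KRT83: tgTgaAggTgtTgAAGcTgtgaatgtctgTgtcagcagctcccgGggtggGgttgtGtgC
KRT81 had 335 to 460 counts per library and KRT83 had 21 to 37, and KRT86 held 63.9% to 67.6% of the counts of these 3 genes. How reads with several alignments were handled is not given in the sources used here, so the split among the 3 is uncertain.

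The usual keratins of simple epithelia were at or near 0 beside KRT7. KRT8 had 1 to 5 counts, and KRT18 and KRT19, type I keratins that pair with KRT7 in filaments, had 0 to 4 and 0. Other type II keratins were counted: KRT80 was at 50.8 ± 3.92 CPM and the type I keratin KRT10 at 17.97 ± 0.298 CPM in control (SD, n = 3 each). Of 15 keratin genes 4 were tested and 0 called, and none of the 4 reached an unadjusted p of 0.05.

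Among 29 further epithelial markers, 22 had at most 10 counts in every library and 10 had 0 throughout. The protease inhibitor genes SPINT2 and SPINT1 were at 91.1 ± 8.75 and 13.6 ± 1.06 CPM, and the splicing factor gene ESRP1 and the mucin gene MUC1 at 4.36 ± 0.265 and 3.75 ± 0.339 CPM in control (SD, n = 3 each). GRHL2, a regulator of epithelial genes, had 0 counts and CLDN4 had 1 to 3. The summed level of the 29 markers was 112 to 129 CPM in control and 118 to 121 CPM with PA4, most of it SPINT2, and 0 of the 7 tested were called.

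LIN28B encodes an RNA-binding protein that keeps let-7 precursors from maturing. It lies on chromosome 6 at 104937026 to 105083332. It had 191.2, 209.9 and 217.1 CPM in control replicates 1 to 3 and 211.2, 213.2 and 215.3 CPM in PA4 replicates 1 to 3. Control replicate 1 was the lowest of the 6, and the PA4 libraries lay within the control range. LIN28B with PA4 was at 1.035 times its control level, with a 95% interval of 0.971 to 1.10 and an edgeR adjusted p of 0.993. Without control replicate 1 its log2 fold change was -0.0025. It was nearest to GATA3 among T cell markers, at 43.5 CPM per kilobase in control, or to LCK with GENCODE lengths.

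The let-7 microRNAs on which LIN28B acts share 1 seed, GAGGUAG, which is bases 2 to 8 of all 9 mature forms found in the RefSeq table (GRCh38.p14), miR-98 included. They are shown because the let-7 targets discussed next are read through this seed (in capitals).
let-7a-5p: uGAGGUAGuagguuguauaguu
let-7d-5p: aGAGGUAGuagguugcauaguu
let-7g-5p: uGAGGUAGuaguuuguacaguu
miR-98-5p: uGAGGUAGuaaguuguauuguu
Mature microRNAs were not measured in these libraries of polyadenylated RNA.

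Of 25 genes of the LIN28 and let-7 axis 19 were tested, 0 were called by edgeR in either direction and 0 had an unadjusted p under 0.05, with a median log2 fold change of 0.0089, beside -0.0040 over all tested genes. The paralog LIN28A had 0 or 1 count per library. Known let-7 targets differed widely in level. MYC was at 744 ± 26.7, CCND2 (cyclin D2) at 749 ± 30.3 and HMGA1, a chromatin protein, at 419 ± 40.4 CPM in control (SD, n = 3 each), whereas HMGA2 had 0 or 1 count. DICER1, which cuts the let-7 precursors, was at 338 ± 13.7 CPM (SD, n = 3).

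DNMT3B, a de novo DNA methyltransferase, lies on chromosome 20 at 32762385 to 32809356. It had 25.8, 24.5 and 25.1 CPM in control and 23.9, 25.7 and 23.4 CPM with PA4 in replicates 1 to 3. The groups overlapped, and the spread over the control libraries was small, at 1.06-fold from lowest to highest. DNMT3B with PA4 was at 0.969 times its control level, with a 95% interval of 0.878 to 1.07 and an edgeR adjusted p of 0.993.

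The rest of the methylation machinery was well counted. DNMT1, the maintenance enzyme, was at 714 ± 22.5 CPM, its partner UHRF1 at 181 ± 15.97 CPM, and MBD2 and CDCA7, a reader of methylated DNA and a helper of maintenance, at 225 ± 8.89 and 170.2 ± 4.89 CPM in control (SD, n = 3 each). DNMT3L, a cofactor of de novo DNA methylation, had 0 or 1 count. Of 17 genes 16 were tested and 0 called. TET3, an enzyme of demethylation, was alone at an unadjusted p under 0.05, beside 5.29% of all tested genes. Its log2 fold change was 0.11 ± 0.052 (SE), and edgeR gave it an adjusted p of 0.943. Its groups overlapped.

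Beside LIN28B and DNMT3B, 19 of 21 pluripotency markers had at most 10 counts in every library and 12 had 0. TERT, the telomerase gene that is also active in most tumour lines, was the 1 marker tested, at 7.27 ± 1.44 CPM in control (SD, n = 3), and it was not called. SALL4 had 0 to 2 counts and LIN28A, SOX2, NANOG and POU5F1 are given above.

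BLK lies on chromosome 8 at 11494387 to 11564599. It had 22.99, 20.6 and 20.9 CPM in control and 22.97, 21.3 and 19.9 CPM with PA4 in replicates 1 to 3. The groups overlapped throughout, with replicate 1 the highest in each. BLK with PA4 was at 0.996 times its control level, with a 95% interval of 0.889 to 1.11 and an edgeR adjusted p of 0.997. Its log2 fold change turned positive, at 0.045, when control replicate 1 was left out, and at 0.0022 and 0.041 when PA4 replicate 2 and 3 were. Other kinases of its family ranged from 0 counts of LYN, the main one of B cells, to 112 ± 4.06 CPM of LCK and 115 ± 0.640 CPM of FYN, those of T cells, in control (SD, n = 3 each). Of 9 genes of the family and its regulators 6 were tested and 0 called.

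CD79A lies on chromosome 19 at 41877279 to 41881372. It had 10.2, 11.3 and 9.34 CPM in control and 10.4, 11.4 and 10.7 CPM with PA4 in replicates 1 to 3. The PA4 libraries lay within and slightly above the control range. Its ratio of PA4 to control was 1.057 with a 95% interval of 0.917 to 1.22 and an edgeR adjusted p of 0.993. Its partner CD79B was at 10.0 ± 1.17 CPM in control (SD, n = 3), and at 7.92 CPM per kilobase it lay near the 8.18 of CD79A.

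The promoter of CD79A is shown beside the levels of TCF3, RUNX3, EBF1 and PAX5. The 300 bases are chr19:41877029-41877328 on the plus strand of GRCh38.p14, from RefSeq, where 4 of the 10 genes had an entry. Capitals mark an E-box (CAGGTG), an ETS core (AGGAAG) and a RUNX core (TGTGGT, here on the other strand and overlapping the E-box).
CD79A promoter: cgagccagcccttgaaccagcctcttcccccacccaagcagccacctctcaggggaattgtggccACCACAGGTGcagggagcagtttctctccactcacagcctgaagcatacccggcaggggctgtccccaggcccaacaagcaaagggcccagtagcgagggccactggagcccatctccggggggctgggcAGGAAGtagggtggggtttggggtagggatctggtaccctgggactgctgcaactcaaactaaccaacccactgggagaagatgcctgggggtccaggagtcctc
On both strands, the E-box occurs in 20.6%, the ETS core in 33.6% and the RUNX core in 13.1% of 35116 equally long promoter windows. For EBF only 1 strict form of its consensus was searched, which occurs in 1.21% of the windows and was not found here. Other forms of the EBF, ETS, RUNX and E-box sites were not searched, so unmarked stretches may hold such sites. TCF3, whose E proteins bind E-boxes, was at 175 ± 16.0 CPM and RUNX3 at 204 ± 17.0 CPM in control (SD, n = 3 each), whereas EBF1 and PAX5, activators of CD79A in B cells, had 0 to 2 counts per library. A match to these letters is not evidence of binding.

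Other B cell markers were mostly near 0: 16 of 22 had at most 10 counts in every library and 7 had 0. MS4A1, the CD20 gene, had 1 to 7 counts per library. The highest were POU2AF1, a coactivator of octamer factors, at 35.1 ± 3.12 CPM, CD79B as above, SPIB, an ETS factor, at 6.11 ± 0.633 CPM and FCER2 at 1.01 ± 0.466 CPM in control (SD, n = 3 each). The summed level was 51.3 to 60.4 CPM in control and 46.5 to 52.2 CPM with PA4, and 0 of the 4 tested were called.

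NCR3 lies on chromosome 6 at 31588895 to 31593006, in the region of the major histocompatibility genes. It had 29.3, 26.3 and 24.7 CPM in control and 26.1, 26.1 and 25.2 CPM with PA4 in replicates 1 to 3. The PA4 libraries lay within the control range, of which replicate 1 was the highest. NCR3 with PA4 was at 0.966 times its control level, with a 95% interval of 0.869 to 1.07 and an edgeR adjusted p of 0.993. Leaving out control replicate 1 turned its direction, to a log2 fold change of 0.021. Its exons share 15 bases, 1.24%, with the neighbouring gene LST1.

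NCR3 signals through CD247 (CD3 zeta) or FCER1G. CD247 was at 163 ± 5.97 CPM in control (SD, n = 3), and FCER1G had 3 to 9 counts per library. Its ligand genes were counted in the same cells, BAG6 at 224 ± 13.1 CPM and NCR3LG1 (B7-H6) at 157 ± 12.7 CPM in control (SD, n = 3 each). Of 7 adaptors and ligands 5 were tested, 0 were called and 0 had an unadjusted p under 0.05.

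NKG7 lies on chromosome 19 at 51371620 to 51372654. It had 231, 223 and 192 counts in control replicates 1 to 3 and 211, 217 and 166 in PA4 replicates 1 to 3, or 11.96, 11.6 and 10.1 CPM and 10.4, 9.52 and 9.10 CPM. PA4 libraries were low, but PA4 replicate 1 stood above control replicate 3, so the groups overlapped. The fold change was 0.865 with a 95% interval of 0.748 to 0.999, or -0.21 ± 0.10 log2 (SE). The edgeR unadjusted p was 0.0490 and the adjusted p 0.943, so NKG7 was not called. Its nearest T cell marker was BCL11B, at 13.5 CPM per kilobase in control, or TCF7 with GENCODE lengths.

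The promoter of NKG7, chr19:51372605-51372904 on the minus strand of GRCh38.p14 (RefSeq), is shown beside the factors counted in these cells. Capitals mark an ETS core (AGGAAG), and neither the RUNX core nor the full T-box letters AGGTGTGA, found in 0.980% of all windows, occur in it. Shorter T-box letters were not searched, so unmarked stretches may hold such a site.
NKG7 promoter: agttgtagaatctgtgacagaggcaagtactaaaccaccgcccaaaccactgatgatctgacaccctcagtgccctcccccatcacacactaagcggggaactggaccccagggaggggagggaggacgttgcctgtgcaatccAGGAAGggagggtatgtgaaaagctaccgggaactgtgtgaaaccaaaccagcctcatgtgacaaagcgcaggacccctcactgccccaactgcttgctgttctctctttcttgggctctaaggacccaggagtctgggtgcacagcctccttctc
EOMES, a T-box factor of cytotoxic cells, was at 50.5 ± 1.42 CPM in control (SD, n = 3).

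The cytotoxic genes around NKG7 and NCR3 were a mixed set. PRF1 (perforin) was at 74.4 ± 6.24, GZMA and GZMK (granzymes A and K) at 15.7 ± 1.02 and 9.02 ± 0.897, and GNLY (granulysin) at 7.93 ± 0.355 CPM in control (SD, n = 3 each), genes that cytotoxic T cells also express. GZMB and NCR1, the NKp46 gene, had 0 counts, NCAM1 (CD56) had 0 or 1 and KLRD1 (CD94) 0 or 1. Of 34 markers 18 had at most 10 counts in every library, 14 were tested and 0 called. TBX21 was higher and XCL1 lower at an unadjusted p under 0.05 by edgeR, beside 5.29% of all tested genes (2.69% higher and 2.6% lower). The summed level was 187 to 200.1 CPM in control and 186 to 192 CPM with PA4.

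**Figure D2:**
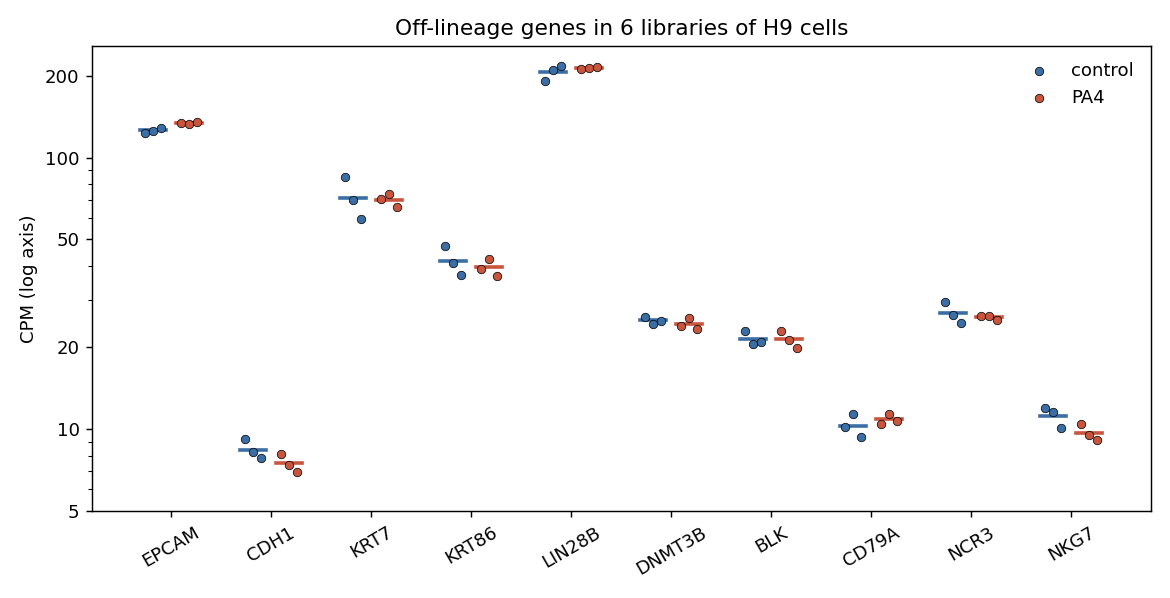
CPM (log axis) of each gene in the 3 control libraries (blue) and the 3 PA4 libraries (red), from replicate 1 to 3 left to right, with bars at the group means. EPCAM is the 1 gene with all PA4 libraries above all control libraries, as in 5.91% of all tested genes. KRT7 has the widest control spread, from 59.5 to 84.7 CPM.

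Across the 10 genes the comparison asked whether 24 h of PA4 changed their RNA. All 10 passed the filter on low counts, and 0 were called at an adjusted p under 0.05 by edgeR, beside 0.231% of the 12107 tested genes (28 genes; 0.215% higher and 0.0165% lower). DESeq2 and limma-voom also called 0 of them. At an unadjusted p under 0.05 there were 2, EPCAM higher and NKG7 lower, beside 5.29% of all tested genes (2.69% higher and 2.6% lower). The groups did not overlap in 1 gene, EPCAM, beside 11.2% of all tested genes (5.91% with PA4 higher and 5.31% lower). Log2 fold changes were negative in 7 genes and positive in 3, beside 52.4% negative over all tested genes, with a median of -0.035 against -0.0040. That balance turned to 4 negative and 6 positive without control replicate 1, and it was 5 and 5 without PA4 replicate 3 or with offsets for GC content. All 10 of the 95% intervals ended short of a 1.5-fold change either way, and 8 short of 1.3-fold, the exceptions being CDH1 and NKG7.

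**Figure D3:**
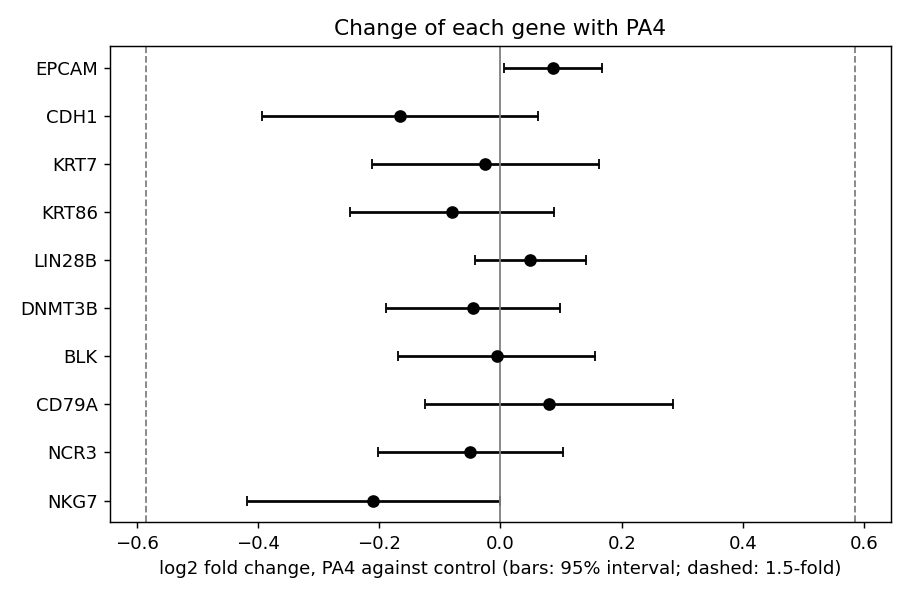
Log2 fold change of PA4 against control for each gene (points) with its 95% interval (bars) from edgeR, and dashed lines at a 1.5-fold change. Every interval lies between the dashed lines, and those of EPCAM and NKG7 lie just off 0.

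The genes differed in their spread within the control group. From the lowest to the highest control library KRT7 varied 1.42-fold and KRT86 1.28-fold, while EPCAM varied 1.04-fold. The median was 1.10-fold over 9599 tested genes whose mean reached 5 CPM, and 98.5% of them varied less than KRT7. Over all genes, transcript GC content moved with the difference between control libraries. Control replicate 1 over replicate 3, as a log2 ratio, had a median of 0.26 over 1058 genes with a GC content of 60% or more and of -0.10 over 3854 genes under 45%. It was 0.51 for KRT7 (62.9% GC), 0.36 for KRT86 (61.4%), 0.25 for NKG7 (58.6%), -0.059 for EPCAM (47.0%) and -0.18 for LIN28B (38.1%). CD79A and BLK, also rich in GC at 60.7% and 59.5%, had 0.13 each, below the medians of 0.21 and 0.19 of genes within 2 percentage points of their GC content. CD79A still varied 1.21-fold over the control libraries, more than 85.6% of the genes. CDH1, at 48.6% GC, had 0.24, higher than 97.5% of the 1226 genes within 2 percentage points of its GC content, and KRT7 was higher than 95.7% of its 626 such genes. CDH1 had only 178 and 149 counts in control replicates 1 and 3, and CD79A had 178 to 218 in control. The genes they were ranked against were not matched for counts, so these shares were not separated from counting error. The part of GC content in the PA4 comparison of these genes was tested only through offsets for it, under which 0 of the 10 were called.

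**Figure D4:**
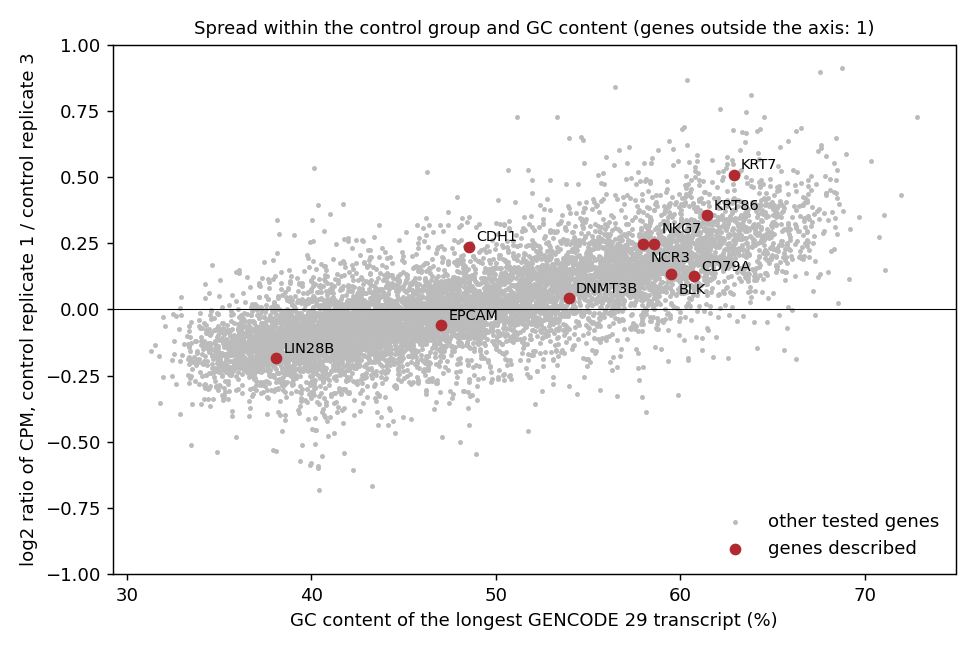
Log2 ratio of CPM between control replicates 1 and 3 (1 over 3) against the GC content of the longest transcript, for 9220 genes whose mean reached 5 CPM (grey) and the 10 genes (red). The cloud goes from negative ratios at low GC content to positive ratios at high GC content, with LIN28B at its low end and KRT7 above it at the high end.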

How the data were processed

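Per the labels, a Direct-zol kit gave the RNA and a Kapa mRNA HyperPrep kit the libraries. The deposited table holds raw read counts per gene for 6 libraries, not normalized, with a gene length in bases as another column. Trimmomatic 0.39, fastp 0.23.2, STAR 2.7.9a, featureCounts (Subread 1.6.4) and hg38 are named in the submitters' processing notes. Annotation and strand setting: not given in the sources used here, so reads of overlapping antisense genes, such as KRT7-AS at KRT7, cannot be told apart.

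Counts were analysed with edgeR 4.0.16 in R 4.3.3 (filterByExpr, TMM, glmQLFit, glmQLFTest, two-sided, no covariate) over 12107 genes holding over 99.9% of each library's counts, with Benjamini-Hochberg adjustment over all of them and a call at an adjusted p under 0.05. The procedure was tested on simulated data. CPM use TMM-scaled totals. DESeq2 1.42.0 and limma 3.58.1 were alternatives. Members, companion lists (15) and their rules were chosen with earlier results of these data known. The text names every member, up to 4 of the most abundant genes of a list, the T cell markers nearest to a member, defining markers, and near copies of a member; CTNNA1, CTNND1, HMGA2, FCER1G, DNMT3L, CLDN7, EBF1, SNAI2, TWIST1, TET3, LYN, GZMB, TBX21, XCL1, CD4, CD2 and the myeloid sum were added after their values were seen. Of 263 list entries 262 matched the table, 4 through an older name. GC content and shared windows come from GENCODE release 29 transcripts and coordinates from RefSeq.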

Additional observations from a re-analysis of the deposited data

How the results depend on the processing

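None of the 10 genes was called in the reported fit or in any of 16 alternative settings, 2 of which (GC-corrected offsets, alone and with the replicate block) were chosen after seeing the data, as was the GENCODE length. Over all tested genes, 28 calls became 62 with no low-count filter, 59 with the replicate block, 111 with GC-corrected offsets, 127 with both, and 17 to 74 when 1 library was left out (74 without control replicate 1, 17 without control replicate 2, 18 without PA4 replicate 1). Of 160 log2 fold changes of single genes under these alternatives, 148 kept their direction and 12 did not, all 12 not called. Without control replicate 1 the values were 0.12 for KRT7, 0.021 for KRT86, -0.0025 for LIN28B, 0.045 for BLK and 0.021 for NCR3. Without PA4 replicate 3 they were 0.015 for KRT7 and 0.041 for BLK, and without PA4 replicate 2 0.0022 for BLK. With GC-corrected offsets they were 0.0027 for KRT7 and 0.0072 for BLK, and 0.0033 and 0.0093 when the block was added. Over all left-out libraries the ranges were -0.14 to 0.12 for KRT7, -0.16 to 0.021 for KRT86, -0.0025 to 0.088 for LIN28B, -0.058 to 0.045 for BLK and -0.10 to 0.021 for NCR3. The cause was not tested. EPCAM stayed between 0.072 and 0.10 log2 and NKG7 between -0.28 and -0.16, with lowest adjusted p-values over the edgeR, DESeq2 and limma fits of 0.208 and 0.369. Same-numbered libraries had correlated deviations of 0.025, -0.0084 and 0.13, and differently numbered ones -0.13 to 0.12. The numbers were not taken to pair them. Because these are deviations from means of 3 libraries, the check cannot exclude pairing. With the GENCODE length, levels per kilobase moved by more than 1 SD for 9 of the 10 genes, DNMT3B being the exception.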
